A study of Mus musculus with 3 samples.

Results

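The CCN genes encode small secreted proteins of the extracellular matrix, and 5 of them were followed in wounded mouse primary fibroblasts: Cyr61 (now Ccn1), Ctgf (Ccn2), Nov (Ccn3), Wisp1 (Ccn4) and Wisp2 (Ccn5). They were taken by gene name from a table of 43472 genes, of which 20322 had reads. All 5 passed the minimum for a detected gene, 10 normalized counts in each of the 3 libraries, as did 12204 of all genes. The cells were fibroblasts grown from tail tips of C57BL/6 mice, scratched in culture and given the soluble micrograft (MG), a cell-depleted extract of mouse skin, together with 1 µM PD0325901, for 5 h. PD0325901 inhibits the kinase MEK, which acts just upstream of ERK. The 3 libraries analysed here, replicates 1, 2 and 3, all come from this MG + PD0325901 condition. Cells without MG or without the inhibitor were not analysed here, so the levels carry no comparison between treatments, and every difference described is between replicates of the same treatment. The labels number the replicates without saying which animals or cultures they came from, so p-values measure only how these libraries differed, which may be technical.

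CCN proteins act as matricellular proteins. They do not build the matrix but bind integrins, heparan sulfate proteoglycans and growth factors, and so tune adhesion, migration and matrix production. A full-length member is made of an insulin-like growth factor binding protein module, a von Willebrand factor type C module, a thrombospondin type 1 module and a C-terminal cystine knot, and Wisp2 lacks the last of these. In fibroblasts Cyr61 and Ctgf are textbook targets of the Hippo effectors YAP and TAZ with TEAD factors, and Ctgf is also a classical target of TGF-beta. Wisp1 and Wisp2 were named for induction by Wnt1, and Nov often opposes Ctgf in matrix-producing cells.

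In the annotation (GENCODE M21, GRCm38), Cyr61 lies on chromosome 3 from 145646976 to 145649981 on the minus strand, and the other members lie on plus strands. Ctgf is on chromosome 10 from 24595442 to 24598683, Wisp2 on chromosome 2 from 163820861 to 163833146, and chromosome 15 carries both Nov (54745702 to 54754039) and Wisp1 (66891320 to 66923201). The coding sequence is spread over 5 exons in Cyr61, Ctgf, Nov and Wisp1 and over 4 in Wisp2. Its length, stop codon included, is 1140 bases in Cyr61, 1047 in Ctgf, 1065 in Nov, 1104 in Wisp1 and 756 in Wisp2. The coding sequence of the member without the cystine knot is thus the shortest. Aligned coding sequences were most alike for Ctgf and Nov, with 59.3% identical bases, and least alike for Cyr61 and Wisp2, with 51.3%. The most conserved stretch without gaps is printed because it tells how far short reads can separate the family. It codes for part of the thrombospondin type 1 module, and capitals mark the 30 of 60 bases that are the same in all 5 genes.
Cyr61: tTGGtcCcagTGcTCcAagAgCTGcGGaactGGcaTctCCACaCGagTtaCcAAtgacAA
Ctgf: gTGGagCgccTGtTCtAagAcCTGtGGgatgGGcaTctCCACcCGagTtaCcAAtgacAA
Nov: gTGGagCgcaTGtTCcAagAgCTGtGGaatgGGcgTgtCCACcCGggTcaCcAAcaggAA
Wisp1: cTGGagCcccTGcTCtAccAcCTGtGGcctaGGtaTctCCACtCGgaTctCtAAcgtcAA
Wisp2: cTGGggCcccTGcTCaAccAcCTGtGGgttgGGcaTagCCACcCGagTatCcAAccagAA
Of the windows of 50 bases, the length of a read, in the transcripts of the 5 genes, none matched another member when 2 mismatches were allowed, so the members did not share reads with each other by sequence. For Ctgf, 507 of 2867 windows (17.7%) matched Gm15270, a noncoding gene on the opposite strand that shares 665 exonic bases with it. Whether reads were counted by strand is not given in the sources used here, and without strand the reads of these bases cannot be told apart. Gm15270 itself was counted at 33.9, 30.3 and 42.7 normalized counts in replicates 1, 2 and 3. For Nov 48 of 2820 windows (1.70%) matched other genes, and for Cyr61, Wisp1 and Wisp2 none did.

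A promoter of the RefSeq table (GRCm38.p6) matched 1 of the 5 genes, Cyr61. The 250 bases before its start, chr3:145649986-145650235 on the minus strand, are printed because Cyr61 is a reference gene for TEAD-driven transcription, and capitals mark the motifs found on either strand.
Cyr61 promoter: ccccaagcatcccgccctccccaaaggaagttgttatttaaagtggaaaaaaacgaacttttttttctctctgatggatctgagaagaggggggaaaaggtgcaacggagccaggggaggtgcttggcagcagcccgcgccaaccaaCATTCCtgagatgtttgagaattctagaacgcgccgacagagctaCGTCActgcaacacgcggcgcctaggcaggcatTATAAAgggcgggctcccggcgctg
The TEAD motif CATTCC begins 103 bases before the start, and 12.6% of 32851 mouse promoter windows of this length hold it. A CRE core (TGACG, on the opposite strand, found in 17.8% of windows) lies 58 bases before the start, and the TATA motif TATAAA (12.4% of windows) lies 25 bases before it. The AP-1 motif TGANTCA, the SMAD motif CAGACA and the CArG box, the serum response element core, have no match in these letters, against 6.75%, 17.1% and 1.47% of all windows. No motif overlapped another in this window, and a match describes letters only.

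The libraries held between 17244505 and 27037783 reads on genes. Replicate 2 stood apart from the others, with 1372 of 13154 genes (10.4%) more than 2-fold above or below both other libraries, against 607 genes for replicate 1 and 504 for replicate 3. All 8 markers of the labelled cell type, the fibroblast, were detected, 3 of them lowest in replicate 2, against 37.3% of all detected genes. The sum of the 8 markers lay between 345263 and 511183 normalized counts, most of it Col1a1, Col1a2 and Vim. This sum hid Lum, with 5073, 289 and 1164 normalized counts in replicates 1, 2 and 3. Lum and Dcn were the 2 markers that ranged more than 2-fold, against 22.0% of all detected genes. Of 6 keratinocyte markers only Krt10 was detected in every library, at 80.8, 39.5 and 32.0 normalized counts in replicates 1, 2 and 3, while Krt15 and Krt1 were at 0 and Krt5 and Krt14 had at most 2 reads in any library. Leukocyte markers summed to between 76.8 and 670 normalized counts, highest in replicate 3, most of it Lyz2, with Ptprc at 1 or 2 reads. Endothelial markers summed to between 55.7 and 244, highest in replicate 2 through Tek alone, and skeletal muscle markers to between 2642 and 8494, also highest in replicate 2, with Myod1 at 0 and Acta1 as most of the sum. The sum of the tendon and cartilage markers had the widest range of the 6 lists as a fold between libraries, though not in counts. It was 26949, 2729 and 15985 normalized counts in replicates 1, 2 and 3. Of the 8 detected genes of this list 5 were lowest in replicate 2, against 37.3% of all detected genes. In such bulk cultures fewer cells of a type and less RNA per cell cannot be told apart.

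Ctgf, whose product drives matrix production and is the most studied fibrosis gene of the family, was by far the highest CCN transcript. Its level was 122412 normalized counts in replicate 1, 58880 in replicate 2 and 111854 in replicate 3, averaging 97715 ± 34044 (SD, n = 3). Normalized counts are the reads of a library divided by the size factor the authors gave it. Replicates 1 and 3 were 1.09-fold apart, and replicate 2 lay 1.90-fold below the nearer of them. Counting error was at most 0.346% in any library, far below this spread. Per kb of exonic length Ctgf ranked 13th among the 19511 genes with reads and an annotated length.

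Cyr61, an immediate-early gene whose product binds integrins and supports adhesion and migration, followed in the same order of libraries but over a smaller range. Its level was 29592, 19897 and 27080 normalized counts in replicates 1, 2 and 3, averaging 25523 ± 5032 (SD, n = 3). Replicate 2 was again the lowest, 1.36-fold below replicate 3, and replicates 1 and 3 were 1.09-fold apart. Per kb it ranked 47th of the 19511 genes.

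Wisp2, the member without the cystine knot, came next. Its level was 15326, 14200 and 20483 normalized counts in replicates 1, 2 and 3, averaging 16670 ± 3350 (SD, n = 3). Here replicates 1 and 2 were alike, 1.08-fold apart, and replicate 3 stood 1.34-fold above the higher of them. Its rank per kb was 84 of 19511.

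Wisp1, a Wnt-induced member known to act on fibroblast growth and on bone cells, was the sole member highest in replicate 2. Its level was 2733, 3784 and 2471 normalized counts in replicates 1, 2 and 3, averaging 2996 ± 695 (SD, n = 3). Replicates 1 and 3 were 1.11-fold apart and replicate 2 lay 1.38-fold above replicate 1.

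Nov was the lowest detected member and the most variable. Its level was 459, 95.8 and 224 normalized counts in replicates 1, 2 and 3, averaging 260 ± 184 (SD, n = 3), which rested on 529, 136 and 189 reads. Without replicate 1 the mean was 160. The 3 libraries were far from each other, with replicate 1 2.05-fold above replicate 3 and replicate 3 2.34-fold above replicate 2. Counting error was 4.35%, 8.57% and 7.27%, well below these steps. Wisp3 (Ccn6), the remaining gene of the family, had 0 reads in all 3 libraries, which allows up to 2.61, 2.11 and 3.56 normalized counts for a floor of 3 reads in each. These limits cover counting error only.

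**Figure D1:**
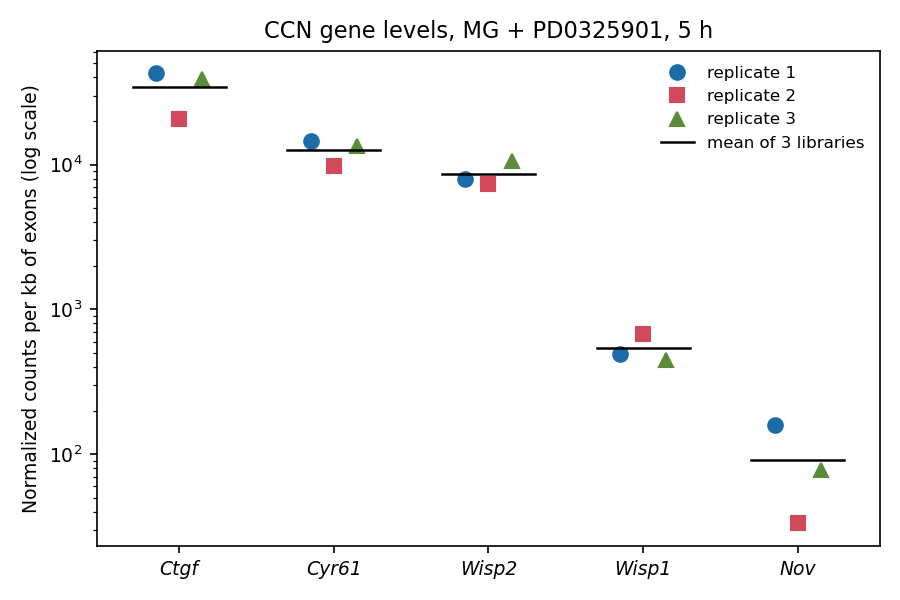
Levels of the 5 CCN genes in normalized counts per kb of exons (log axis), 1 point for each of 3 libraries, with the mean as a line. The genes span from 33.4 to 42786 per kb, and replicate 2 is the lowest library for every gene but Wisp1.

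Levels of different genes were compared per kb of exonic length, because longer transcripts collect more reads. On this scale Ctgf had 34154 ± 11899 normalized counts per kb (SD, n = 3), Cyr61 12641 ± 2492, Wisp2 8664 ± 1741, Wisp1 538 ± 125 and Nov 90.5 ± 64.3. The order Ctgf, Cyr61, Wisp2, Wisp1, Nov held in each of the 3 libraries. Every library of Ctgf lay above every library of Cyr61, every library of Wisp2 above every library of Wisp1, and every library of Wisp1 above every library of Nov. Cyr61 and Wisp2 were the exception, as the lowest library of Cyr61 (9855 per kb) lay below the highest of Wisp2 (10646 per kb). Their levels were thus not separated by the spread between replicates, although Cyr61 was above Wisp2 in each library by 1.84-fold, 1.34-fold and 1.26-fold in replicates 1, 2 and 3. With 3 libraries an exact paired permutation test between 2 genes cannot give a two-sided p below 0.25, so none was made.

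Ratios of members within a library do not depend on how libraries were scaled, and they showed how the make-up of the family shifted between libraries. Ctgf held 64.8%, 53.4% and 61.4% of the summed CCN level per kb in replicates 1, 2 and 3, and Cyr61 held 22.2%, 25.6% and 21.1%. The ratio of Ctgf to Cyr61 per kb was 2.92 in replicate 1 and 2.91 in replicate 3, and 2.09 in replicate 2. The share of Wisp2 was lowest in replicate 1 with 12.1%, against 19.2% in replicate 2 and 16.7% in replicate 3. Wisp1 was 0.743% and 0.697% of the family in replicates 1 and 3 and 1.77% in replicate 2. The ratio that shifted most was that of the members on chromosome 15, as Wisp1 was 3.07-fold, 20.4-fold and 5.69-fold above Nov per kb in replicates 1, 2 and 3. Together the 5 genes took 0.871%, 0.508% and 0.793% of all reads on genes in replicates 1, 2 and 3.

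Each pair of libraries was compared on reads by a two-sided exact binomial test over the genes that had 10 reads or more between them, and p-values were adjusted after Benjamini and Hochberg (threshold 0.05). Such a test compares libraries, not conditions, and covers counting error only, so small differences pass in genes of this depth. All 5 members were called in each of the 3 pairs, and the weakest call was Wisp1 in replicate 3 against replicate 1, with a 1.11-fold difference and an adjusted p of 0.00109. In replicate 2 against replicate 1 Cyr61, Ctgf, Nov and Wisp2 were lower, by between 1.08-fold and 4.79-fold, and 32.7% of all 14771 genes tested were lower. Wisp1 was higher there by 1.38-fold, with 35.7% of all genes higher. In replicate 3 against replicate 1 Cyr61, Ctgf, Wisp1 and Nov were lower, where 25.1% of 14316 genes were, and Wisp2 was higher, where 26.1% were. For Nov, the log2 ratio of replicate 2 to replicate 1 was -2.26 (exact binomial test, adjusted p 6.54e-74) and that of replicate 3 to replicate 1 was -1.04 (adjusted p 8.69e-18). In replicate 3 against replicate 2 Cyr61, Ctgf, Nov and Wisp2 were higher, with 30.0% of 14344 genes, and Wisp1 was lower, with 32.0%.

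The highest library was more than 2-fold above the lowest in 2 of the 5 members, Ctgf (2.08-fold) and Nov (4.79-fold), against 22.0% of the 12204 detected genes. Wisp1 (1.53-fold), Cyr61 (1.49-fold) and Wisp2 (1.44-fold) were near the median of those genes, 1.49-fold. Between replicates 1 and 3 alone, only Nov was more than 2-fold apart, as were 6.31% of the genes, and the median gene differed by 1.21-fold. On the log2(normalized count + 1) scale the SD between replicates was 0.30 for Cyr61, 0.58 for Ctgf, 1.13 for Nov, 0.32 for Wisp1 and 0.28 for Wisp2, with a median of 0.30 over the detected genes. The SD of Nov exceeded that of 96.8% of the detected genes and the SD of Ctgf that of 82.0%. The biological coefficient of variation that edgeR gave from the reads, which takes out counting error and leans on genes of like level, was 50.1% for Nov and 31.4% for Ctgf, and between 24.6% and 25.7% for Wisp1, Wisp2 and Cyr61. Without replicate 2 these values were 26.0% for Nov, 19.5% for Ctgf and between 17.5% and 19.7% for the others. With a library left out, each value leaned still more on other genes, so its fall does not measure the gene's own spread. The value over all genes fell as well, from 32.1% to 22.5%, and Nov was still 2.05-fold apart between replicates 1 and 3.

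**Figure D2:**
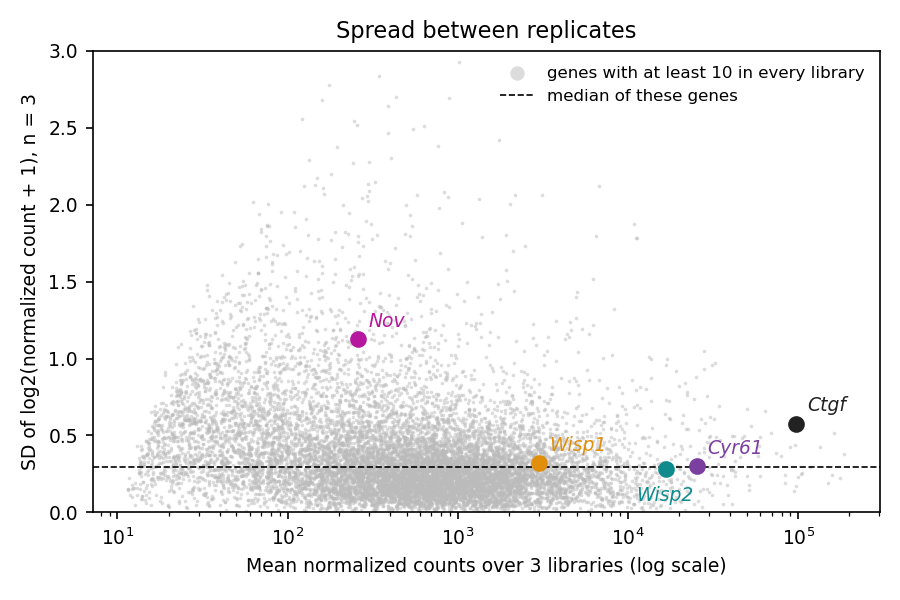
Spread between the 3 replicates, as the SD of log2(normalized count + 1), against mean normalized counts (log axis), for all detected genes (grey) and the 5 CCN genes (coloured). 2 genes lie above the upper limit of 3, the dashed line is the median of 0.30, and Nov (1.13) and Ctgf (0.58) lie above it while Cyr61, Wisp1 and Wisp2 lie close to it, between 0.28 and 0.32.

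The members had 3 different orders of the libraries. Cyr61, Ctgf and Nov were highest in replicate 1 and lowest in replicate 2, an order that 21.4% of the detected genes also had. Wisp1 had the order of replicates 2, 1 and 3 (18.1% of genes), and Wisp2 the order of replicates 3, 1 and 2 (15.9% of genes). Of the 8 detected tendon and cartilage markers, Scx and Col2a1 had the order of Cyr61, Ctgf and Nov, Mkx, Fmod and Comp had that of Wisp2, Tnmd and Cilp had that of Wisp1, and Sox9 had none of these. The part of such cells in the levels of the CCN genes was not tested.

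**Figure D3:**
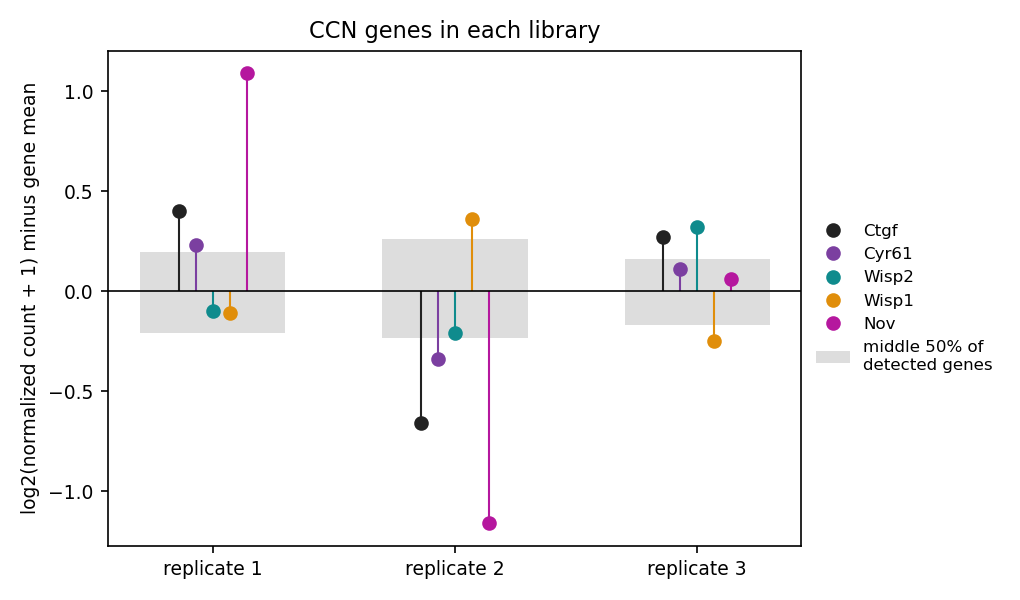
Deviation of each CCN gene from its own mean, on the log2(normalized count + 1) scale, in the 3 libraries. Grey bars span the middle 50% of the detected genes. In replicate 2 Cyr61 (-0.34), Ctgf (-0.66) and Nov (-1.16) lie below the bar and Wisp1 (0.36) above it.

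Likeness to single genes was measured as the Euclidean distance between log2(normalized count + 1) values centred on each gene's mean, over 3 libraries and the 9377 genes that reached 100 normalized counts in each, leaving out the gene itself. Nov was below that minimum in replicate 2. Nearest to Ctgf were Smdt1, Myl6 and Cdk10, and 50 genes lay within a distance of 0.1. Myl6, a myosin light chain, was at 26239, 12486 and 23899 normalized counts in replicates 1, 2 and 3, a similar share of Ctgf in each. Cyr61 was nearest to Slc31a2, Cfap69 and Crtc2, with 232 genes within 0.1. For Wisp1 they were Tes, Acat2 and Disp1 (212 genes within 0.1), and for Wisp2 Ppp3cc, 2310045N01Rik and Tesk1 (161 genes). Nov had few genes like it, and Mt1 and Csf3 were the sole ones within 0.1. The metallothionein gene Mt1 had 7746, 1554 and 3769 normalized counts, and Csf3, the gene of the granulocyte colony-stimulating factor, had 1096, 216 and 552. Mt2, another metallothionein gene, came next at a distance of 0.189. Among the members themselves, Cyr61 and Ctgf were the closest pair (0.394) and Nov and Wisp1 the farthest (1.96). All distances rest on the same 3 libraries and are descriptions.

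Of 16 listed receptors and co-receptors of CCN proteins 13 were detected, beside 12204 of the 20322 genes with reads. The integrin chains Itgb1, with 36264, 37118 and 42075 normalized counts in replicates 1, 2 and 3, and Itga5, with 33943, 47111 and 45802, were the highest of the list also per kb, at means of 9430 and 8572. Itgb1 varied by only 1.16-fold, while Ctgf ranged over 2.08-fold. Itgav, the alpha chain of the classical CCN-binding integrins, had 3947, 4693 and 6206 normalized counts, and its partner Itgb5 had 5401, 5239 and 10795. Itgb3, its other partner, varied more, with 406, 1366 and 797 normalized counts and the highest value in replicate 2, where Ctgf was lowest. Itga6, which pairs with Itgb1 to bind Cyr61, had 464, 260 and 666 normalized counts. The leukocyte integrin chains Itgam and Itgb2 were not detected in every library, with at most 7 and 29 reads, both in replicate 3, where the leukocyte markers were also highest, and the part of other cells in these reads was not tested.

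Among the co-receptors, the endocytic receptor Lrp1, which binds Ctgf, had 17408, 21453 and 28209 normalized counts in replicates 1, 2 and 3. Sdc4, a heparan sulfate proteoglycan that helps cells adhere to CCN proteins, had 18785, 6933 and 24404, lowest in replicate 2 like Ctgf and over a range of 3.52-fold. The Wnt co-receptor Lrp6 was the most even of the list, with 1363, 1410 and 1440 normalized counts. Tnfrsf11b, which encodes osteoprotegerin, had 3298, 1053 and 2966 and was also lowest in replicate 2. Of the 13 detected genes of the list 5 were lowest and 3 highest in replicate 2, beside 37.3% and 40.6% of all detected genes. Bmpr2 had 1626, 1565 and 1011, Fgfr2 317, 287 and 490, and Notch1, a binding partner of Nov, 199, 334 and 231 normalized counts. Over the list, 6 of 13 genes tested were higher and 3 lower in replicate 2 against replicate 1, where 35.7% of all genes were higher and 32.7% lower, and their median log2 ratio was 0.034, against 0.02 over all genes. Against replicate 1, 10 of 14 were higher in replicate 3 and 2 lower, beside 26.1% and 25.1% of all genes, and the median was 0.48 against -0.016. Against replicate 2, 9 of 15 were higher in replicate 3 and 4 lower, beside 30.0% and 32.0% of all genes, and the median was 0.40 against -0.018. With so few genes a list, these shares and medians are descriptions. In this and the following lists, the shares over all genes include genes with as few as 10 reads in a pair. Genes with many reads are called more readily, so a list of them can hold more calls in both directions.

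**Figure D4:**
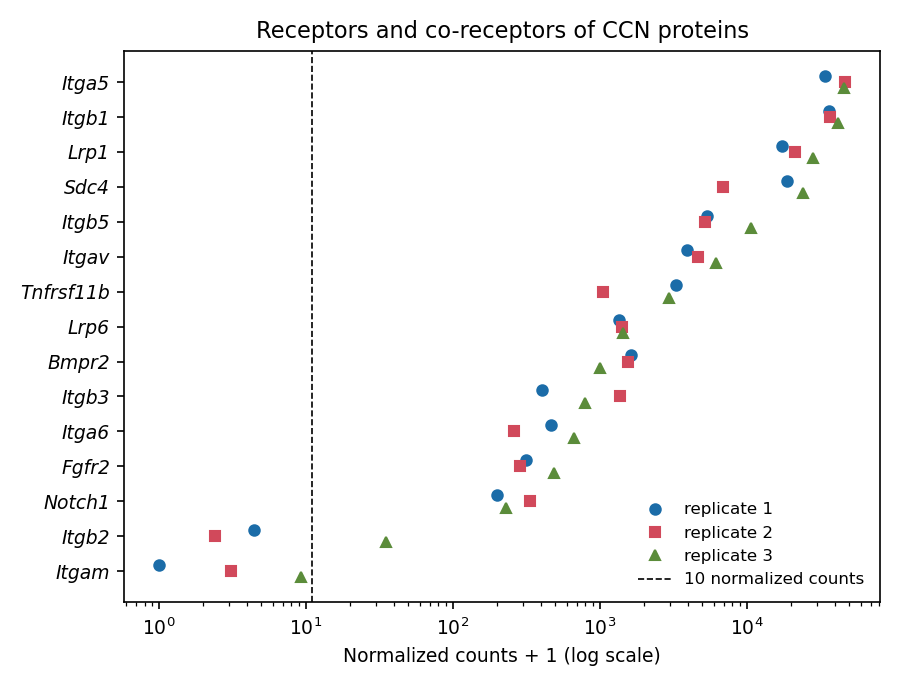
Normalized counts + 1 (log axis) of the 15 listed receptors and co-receptors of CCN proteins with a mean of at least 1 normalized count, in the 3 libraries. The dashed line marks 10 normalized counts, and Itgb2 and Itgam have libraries to its left.

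The other targets of YAP and TAZ with TEAD did not share 1 pattern with Cyr61 and Ctgf. All 20 listed genes were detected. Replicate 2 was the lowest library for 6 of them and the highest for 11, beside 37.3% and 40.6% of all detected genes. In replicate 2 against replicate 1, where Cyr61 and Ctgf were lower, 13 of the 20 were higher and 6 lower, beside 35.7% and 32.7% of all genes, and their median log2 ratio was 0.19 against 0.02. F3, the gene of tissue factor, behaved like Ctgf, with 38077, 17307 and 29664 normalized counts in replicates 1, 2 and 3. The receptor kinase gene Axl ran the other way, with 11273, 22506 and 15725, as did the membrane repair gene Myof, with 2877, 7355 and 4535. Amotl2, a feedback inhibitor of YAP, had 11486, 14843 and 17061. Replicate 3 had 9 higher and 8 lower than replicate 1 (26.1% and 25.1% of all genes), with a median of -0.044 against -0.016 over all genes. It had 9 higher and 10 lower than replicate 2 (30.0% and 32.0% of all genes), with a median of -0.13 against -0.018.

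All 15 listed targets of SRF and its MRTF cofactors, among them contractile genes of activated fibroblasts, were detected, and 2 of them (against 22.0% of all detected genes) ranged more than 2-fold. Acta2, smooth muscle actin, had 152758, 166683 and 205899 normalized counts in replicates 1, 2 and 3. Tagln, a marker of contractile fibroblasts, had 100445, 83454 and 114825. Tpm1 had 90779, 71218 and 87695 and the actin crosslinker gene Flna had 38823, 68501 and 71581. In replicate 2 against replicate 1, 7 were higher and 6 lower, beside 35.7% and 32.7% of all genes, and the median log2 ratio was 0.021 against 0.02. Replicate 3 had 9 higher and 5 lower than replicate 1, beside 26.1% and 25.1% of all genes, and the median was 0.15 against -0.016. Compared with replicate 2 it had 9 higher and 6 lower, beside 30.0% and 32.0%, and the median was 0.063 against -0.018.

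Canonical Wnt targets other than Wisp1 and Wisp2 were detected in part, 5 of 13 listed genes, and the whole list summed to 1122, 1533 and 1267 normalized counts in replicates 1, 2 and 3, with the highest sum in replicate 2 through Dkk2 alone. Dkk2, a Wnt antagonist, had 291, 914 and 480. Nkd2 had 494, 303 and 490, Znrf3 had 125, 130 and 137, and Apcdd1 had 43.4, 59.9 and 67.6. Sp5, of the same list, had 0 reads. Of 12 genes tested in replicate 2 against replicate 1, 2 were higher and 4 lower, beside 35.7% and 32.7% of all genes, and the median log2 ratio was -0.0035 against 0.02. Replicate 3 had 1 higher and 3 lower of 12 than replicate 1, beside 26.1% and 25.1%, with a median of -0.35 against -0.016. Of 11 genes, 2 were higher and 3 lower than in replicate 2, beside 30.0% and 32.0%, with a median of 0.077 against -0.018. These counts and medians include genes of few reads that were not detected in every library. All 3 genes lower in replicate 3 than in replicate 1 were of this kind, with at most 40 reads in any library. Over the 5 detected genes the median log2 deviation from the gene's own mean was -0.065 in replicate 1 and 0.071 in replicate 3.

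All 8 listed TGF-beta ligands and receptors were detected. Tgfb3, a ligand, followed the order of Ctgf, with 8974, 4586 and 5853 normalized counts in replicates 1, 2 and 3. Tgfb1 was lowest in replicate 2 too, with 1166, 922 and 1672. The receptor genes Tgfbr2, with 1570, 2377 and 2007, and Tgfbr3, with 1090, 2579 and 1228, were highest in replicate 2. Of the 8, 4 were higher and 4 lower in replicate 2 against replicate 1, beside 35.7% and 32.7% of all genes, and the median log2 ratio was 0.13 against 0.02. For replicate 3 against replicate 1 the counts were 3 and 3, beside 26.1% and 25.1%, and the median was 0.14 against -0.016. For replicate 3 against replicate 2 they were 3 and 5, beside 30.0% and 32.0%, and the median was -0.37 against -0.018.

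Of 18 listed matrix and growth factor partners of CCN proteins, and proteases that cut them, 13 were detected. Fn1, fibronectin, had 136151, 118311 and 232677 normalized counts in replicates 1, 2 and 3. Hspg2, perlecan, had 17317, 17901 and 24898. The collagenase-activating membrane protease gene Mmp14 had 13724, 15866 and 20812, and Mmp3 had 9094, 5597 and 14260. Against replicate 1, 10 of 15 genes tested were higher in replicate 3 and 1 lower, beside 26.1% and 25.1% of all genes, and the median log2 ratio was 0.52 against -0.016. Wisp2, at 0.42, was the sole CCN gene higher there. Against replicate 2, 10 of 15 were higher in replicate 3 and 3 lower, beside 30.0% and 32.0%, and the median was 0.56 against -0.018. In that pair 7 of 8 fibroblast markers and 3 of 4 leukocyte markers tested were higher too. Dcn counts among these fibroblast markers and also among the 18 listed genes. Of the higher leukocyte markers only Lyz2 was detected in every library. The part of the marked cells in these differences was not tested. In replicate 2 against replicate 1, 6 of 15 were higher and 8 lower, beside 35.7% and 32.7%, and the median was -0.048 against 0.02.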

How the data were processed

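RNA-seq libraries of total RNA were made with a stranded mRNA kit and read as 50 bp single-end reads. The authors filtered adapters, aligned the reads to mm10 with TopHat (2 mismatches; uniquely mapped reads scoring 10 or more), used HT-Seq count for gene counts and normalized with DESeq. Neither the gene annotation nor whether strand was used is given in the sources used here. The deposited values (unit: signal) are normalized counts, and 100% of those in a library were whole reads (within 0.01) times a constant. Undoing this scaling recovered 22540518, 27037783 and 17244505 reads, with size factors of 1.15, 1.42 and 0.844 in replicates 1, 2 and 3. A further 3 columns matched no labelled sample and were not used.

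Means and SDs were taken on normalized counts. Exonic lengths and positions came from GENCODE M21, matched for 96.0% of the genes with reads. Pairs of libraries were compared across all genes by exact binomial tests on recovered reads (scipy 1.17.1), called between 7317 and 10098 genes a pair, and edgeR 4.0.16 gave dispersions and TMM factors. Windows were aligned with bwa and coding sequences with mafft 7.526. Of these steps only the exact binomial test was tried on simulated reads, which held counting error but no spread between cultures. The 5 members and all lists were chosen with earlier results of these data known. Named genes are the members, the 3 genes nearest to each, the listed receptors (1 of them is not reported here) and up to 4 genes with the highest mean of each other list. Sp5, Gm15270, Wisp3 and the cell type markers were named after their values were seen. No test between conditions could be made.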

Additional observations from a re-analysis of the deposited data

How the results depend on the processing

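The mean levels of the 5 CCN genes moved by at most 0.532% with TMM factors or equal totals in place of the size factors. Each alternative was set to the geometric mean of the authors' size factors, so a mean over 3 libraries could move little. Ratios between libraries could move more. With total reads the log2 ratio of Ctgf in replicate 3 against replicate 2 went from 0.93 to 0.82. That of Wisp1 went from -0.61 to -0.72. The order of the 5 genes per kb was the same with the longest transcript as length, without division by length and without each replicate. The mean of Nov, 260 normalized counts, lay between 160 and 342 without each replicate, lowest without replicate 1. The 15 differences of members between libraries kept direction and call under 4 alternatives (TMM factors, total reads, no minimum of reads, at least 50 reads). The other minimums of reads could not change a member's ratio, as every member had at least 136 reads in each library. They bore only on the adjustment of p-values. With a more than 2-fold difference required as well, the calls over all genes fell by construction to 2972 for replicate 2 against replicate 1, 1274 for replicate 3 against replicate 1 and 2331 for replicate 3 against replicate 2. The count of 2 members more than 2-fold apart became 1 when 100 normalized counts were required in each library, which drops Nov, and was between 1 and 2 without each replicate. Without replicate 1 it was Nov alone, and without replicate 2 it was Nov alone. The biological coefficient of variation over all genes, 32.1%, lay between 22.5% and 36.8% without each replicate, lowest without replicate 2. No paired analysis was possible because the labels hold 1 condition. Counting error was highest for Nov, at most 8.57% in a library.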
